A study of Mus musculus with 41 samples.

Results

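The 3 control libraries of mouse embryonic fibroblasts (MEFs) and the 3 control libraries of whole embryos at E8.5 were compared by their ribosome footprints, which are the mRNA fragments that a ribosome shields from nuclease and so mark the messages under translation. They are 6 of the 30 footprint libraries and of the 41 samples of the series, and they were chosen by their labels alone, without any measured value. Each embryo replicate was a pool of 5 wild-type embryos labelled C57BL/6NJ and belonged to sequencing batch 1. Each MEF replicate came from a single embryo taken at E13, was labelled C57BL/6 with the genotype CAG-Cre ER, was treated with tamoxifen (1 µM 4-OHT for 48 hr) and belonged to sequencing batch 3. CAG is a promoter active in nearly all cell types and Cre ER is a recombinase that tamoxifen switches on. The MEFs were harvested at passage 1, 48 hr after seeding, from 2 dishes of 10 cm each, and by the study's strain descriptions the MEFs also carried the C57BL/6J allele of the tRNA gene n-Tr20. The study backcrossed its constitutive Hbs1l mutant line to bring in this allele too, and the allele of the embryos was not checked here. Embryos were frozen and ground in a mill, whereas MEFs were lysed through a needle. Sequencing batch, strain label, transgene, tamoxifen, age, culture and lysis therefore changed together with the tissue, and their effects cannot be told apart in any comparison that follows.

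At E8.5 the mouse embryo is folding its neural plate, cutting somites from the presomitic mesoderm and beating with a first heart tube, while the yolk sac around it makes the first red cells and the plasma proteins that a liver will make later. MEFs are the adherent mesenchymal cells that grow out of a dissociated mid-gestation embryo on plastic and serum. Fibroblasts are known for secreting collagen and other extracellular matrix, and for pulling on it with actin bundles called stress fibres. In whole embryos, fewer cells of a type and fewer ribosomes per cell cannot be told apart.

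The embryo libraries held 2634480 to 4067319 footprints on coding sequence and the MEF libraries 11236276 to 13614532. Levels are given in CPM (footprint counts scaled to a common library total) after TMM scaling, which takes most genes as unchanged, and 3 counts corresponded to 0.636 to 0.994 CPM in an embryo library and to 0.273 to 0.320 CPM in a MEF library. Across genes, log2(CPM + 1) correlated at 0.979 to 0.995 within either group and at 0.663 to 0.672 between the groups. The labels held against their defining markers with exceptions. Among 14 fibroblast markers, Col1a1, Col1a2, Col3a1, Thy1, Vim, S100a4, Pdgfrb, Prrx1, Postn, Fbn1 and Dcn were higher in MEFs, whereas Pdgfra, a receptor for platelet-derived growth factor, was lower (178 CPM in embryos and 28.8 in MEFs on average), as were Lum (58.3 and 14.5) and Twist1 (62.6 and 39.5). Y-linked Ddx3y was at 136 CPM in MEF replicate 3 and at 0.208 and 1.09 CPM in replicates 1 and 2, and at 27.5 CPM in embryo pool 3 against 4.31 and 7.63 CPM in pools 1 and 2. The makeup by sex thus differed inside both groups, and none of the 4 Y-linked genes tested passed the test, although without MEF replicate 3 Ddx3y passed as lower in MEFs (-4.21, adjusted p = 0.034 with edgeR).

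Footprint levels differed for most of the genes tested. Of 12616 genes tested with edgeR, 9792 passed at an adjusted p of at most 0.05, with 4875 (38.6%) higher and 4917 (39.0%) lower in MEFs. A stricter test that asks whether the difference exceeds 2-fold called 4775 genes, 2502 (19.8%) higher and 2273 (18.0%) lower in MEFs. Every count for a gene list below is to be read against these shares. A low gene is tested only if it has enough counts in one of the groups, so in a list with many untested members the direction of the tested ones follows in part from this filter. The median absolute log2 fold change was 0.934, and 938 genes lay beyond 5 on the log2 scale, 362 toward MEFs and 576 toward embryos. Scaling by library totals alone, without TMM factors, lowered the median of all genes from -0.01 to -0.56 and turned the balance of calls to 3285 higher and 6977 lower, so differences smaller than this shift have a direction only relative to the scaling. Upper quartile scaling moved the split less, to 4249 higher and 5676 lower.

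The mRNA of MEFs, sequenced by the study in a further batch, followed the footprints at the low end. Genes beyond 2-fold higher in embryos had a median of 0.739 TPM in the 3 control MEF RNA libraries, and 54.3% of them were under 1 TPM. Genes beyond 2-fold higher in MEFs had a median of 10.8 TPM with 8.07% under 1 TPM, against a median of 7.91 TPM over all genes tested. No embryo RNA was used here, so the share of each difference that lies in mRNA level was not tested.

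**Figure D1:**
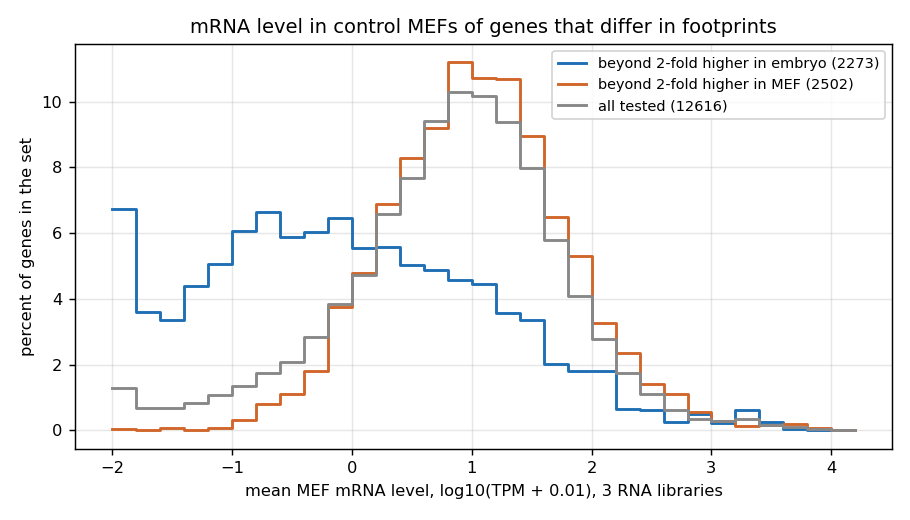
Distribution of the mean mRNA level in 3 control MEF RNA libraries, as log10(TPM + 0.01), for genes beyond 2-fold higher in embryo footprints (blue), beyond 2-fold higher in MEF footprints (orange) and all genes tested (grey); the vertical axis is the percent of genes in each set. The blue curve lies mostly to the left of 0, that is under 1 TPM, with a median of 0.739 TPM, while the orange curve has a median of 10.8 TPM.

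The leading genes had the largest fitted differences among genes with a mean of at least 50 CPM. Leading embryo genes were Hba-x, Hbb-bh1, Hbb-y, Apoa1, Car4, Apoa4, Spink1, Apom, Lin28a, Sall4, S100g, Afp, Ttr and Fgb, with mean levels from 130 CPM (Fgb) to 5314 CPM (Hba-x). Of these, 11 had no footprint in any MEF library and Apoa1, Ttr and Afp had 1, 3 and 5 in all 3 together. Leading MEF genes were C1qtnf3, Tnmd, Il1rl1, Gpr176, Inhba, Ltbp2, Lox, Ahnak2, Tm4sf1, Col8a1, Ccl2, Anxa1, Thbs2 and Esr1, with mean levels from 120 CPM (Gpr176) to 4065 CPM (Lox). Tnmd, a tendon cell glycoprotein, was at 127, 147 and 185 CPM in the MEF libraries and at 0 in the embryo libraries, a difference of at least 183-fold against the floor of 3 counts in each library. Inhba, which encodes the subunit of activin A, was at 949, 1080 and 957 CPM in MEFs, with 2 footprints in all embryo libraries. Esr1, the oestrogen receptor, was at 354, 433 and 358 CPM in MEFs against 0, 0.636 and 0.295 CPM in embryos. Cre ER contains part of an oestrogen receptor, so footprints of the transgene and of the gene itself cannot be told apart in this count.

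**Figure D2:**
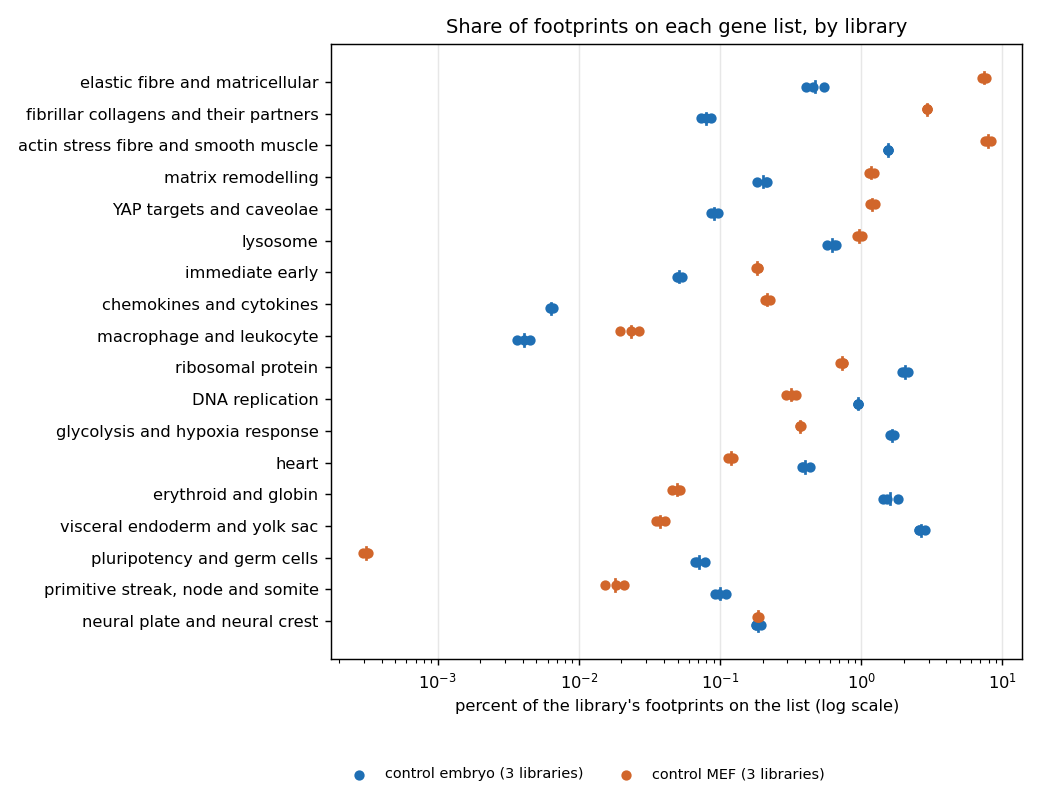
Share of each library's footprints that fell on the members of 18 gene lists, on a log scale; blue points are the 3 control embryo libraries, orange points the 3 control MEF libraries, and short lines their means. The lists of matrix and actin genes took 7.43% and 7.86% of MEF footprints, and the visceral endoderm list took 2.66% of embryo footprints and 0.0376% of MEF footprints.

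Extracellular matrix genes took a far larger share of the footprints in MEFs than in embryos. Elastic fibre and matricellular genes took 7.43%, 7.62% and 7.23% of the footprints of the 3 MEF libraries and 0.410%, 0.550% and 0.453% of those of the embryo libraries. Of 35 such genes tested, 32 were higher in MEFs (29 beyond 2-fold), 2 were lower and 1 did not pass. Thbs1, thrombospondin 1, had the largest share of all MEF footprints, with 23381, 26192 and 21842 CPM against 42.4, 53.2 and 44.9 CPM in embryos (log2 fold change 8.98 ± 0.132 SE, adjusted p = 5.11e-23 with edgeR). Fn1, fibronectin, was at 19851, 21479 and 18542 CPM against 985, 1652 and 1124 CPM. In both genes every MEF library lay far above every embryo library. Tnc, tenascin C, was at 8062, 8731 and 8568 CPM in MEFs and averaged 30.1 CPM in embryos. In mean CPM of MEFs against embryos, Sparc stood at 6322 against 382, Fbln2 at 5774 against 37.5 and the proteoglycan Bgn at 5192 against 17.2. The exceptions were Fbln1, a fibulin that averaged 551 CPM in embryos and 167 in MEFs, and the small proteoglycan Lum, while Thbs3 did not pass (25.5 and 26.0 CPM).

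The 16 genes of the list of fibrillar collagens and their partners were higher in MEFs, each beyond 2-fold, with a median log2 fold change of 5.23 and a range from 2.96 (Col14a1) to 10.60 (Col8a1). Together they took 2.93%, 2.94% and 2.94% of MEF footprints and 0.0733% to 0.0865% of embryo footprints. Col1a1, the main chain of type I collagen, was at 14896, 15870 and 14276 CPM against 228, 250 and 205 CPM, and its partner Col1a2 at 4849, 4490 and 4966 CPM against 153, 156 and 136 CPM. Col3a1 changed less (1072 CPM against 99.6, log2 fold change 3.43 ± 0.0903) and Col12a1, which coats fibrils, changed more (5775 CPM against 11.7, log2 fold change 8.93 ± 0.129). Of 23 genes that fold, hydroxylate, trim and cross-link collagen, 22 were higher in MEFs (19 beyond 2-fold) and 1, the hydroxylase P3h2, was lower. The cross-linking enzyme Lox stood at 4000, 4032 and 4164 CPM against 1.33, 2.97 and 0.591 CPM. The collagen chaperone Serpinh1 was already at 1639, 1731 and 1996 CPM in embryos and was 3.35-fold higher in MEFs. The fold toward MEFs was thus larger for the collagens named from the first list and for the lysyl oxidase than for the chaperone, although these differences between genes were not themselves tested. Cartilage collagens stood in another list, of cartilage and bone genes, of which 14 were tested, 5 were higher, 3 lower and 6 did not pass, or 4 higher and 7 lower with library totals. The median of that list (-0.28) was above 0 at 5 CPM or more in 3 libraries (0.11), with thinned counts (0.0041) and without embryo replicate 2 (0.31). Col2a1, the chain of cartilage fibrils, was at 609, 742 and 534 CPM in MEFs against 148, 170 and 134 CPM in embryos (log2 fold change 2.06 ± 0.114), whereas Col9a1 was lower in MEFs (2.08, 0.364 and 0.641 CPM against 20.2, 22.5 and 21.6 CPM) and Col11a2 did not pass (means of 0.988 and 2.4 CPM). Col11a2 passed as lower without MEF replicate 1 (-2.97), with library totals (-1.87) or upper quartile scaling (-1.52), with no filter on low counts (-1.27) and with a replicate block (-1.57).

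Genes that remodel matrix followed the same direction in 17 of 19 tested, 16 beyond 2-fold, with Ctsl and Adamts9 lower, the latter a call lost without embryo replicate 2 (-0.29) or MEF replicate 1 (-0.34) and with batch 4 MEFs (-0.23). The metalloproteinase inhibitor Timp1 averaged 1036 CPM against 6.01, and the membrane metalloproteinase Mmp14, which cuts collagen at the cell surface, 996 CPM against 98.9. Basement membrane genes were divided, with 12 of 19 higher and 5 lower. Col4a1 (3771 CPM in MEFs, 496 in embryos) and the proteoglycan Hspg2 (5461 and 455) were higher in MEFs. Lama1, the laminin chain of early embryonic basement membranes, was at 168, 237 and 457 CPM in embryos and at 20.9, 27.7 and 21.5 CPM in MEFs, and Col18a1 averaged 525 against 75.1 CPM. Per kb of coding sequence, the laminin alpha chain Lama1 was at 31.1 CPM per kb in embryos and 2.52 in MEFs, Lama2 at 0.338 and 16.5 and Lama4 at 13.9 and 27.3, while Lama5 did not pass the test (28.5 and 26.6).

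Of 33 genes of the endoplasmic reticulum and COPII coats, which fold and ship secreted proteins, 25 were higher in MEFs and 1 lower, 8 were beyond 2-fold and the median log2 fold change was 0.66, which became 0.12 with library totals, where 14 were higher and 9 lower. The list took 2.18% to 2.2% of embryo footprints and 2.32% to 2.51% of MEF footprints. The members beyond 2-fold included the cargo coat subunits Sec24d (378 CPM in MEFs, 67.6 in embryos) and Sec23a (626 and 129) and the transcription factors Creb3l1 (121 and 16.4) and Creb3l2 (162 and 36.4), which are known to raise the secretory capacity of matrix-producing cells. The general chaperone Hspa5 did not pass (2789 CPM in MEFs and 2586 in embryos), but it passed as higher in MEFs without embryo replicate 2 (0.17) and as lower with library totals (-0.43).

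**Figure D3:**
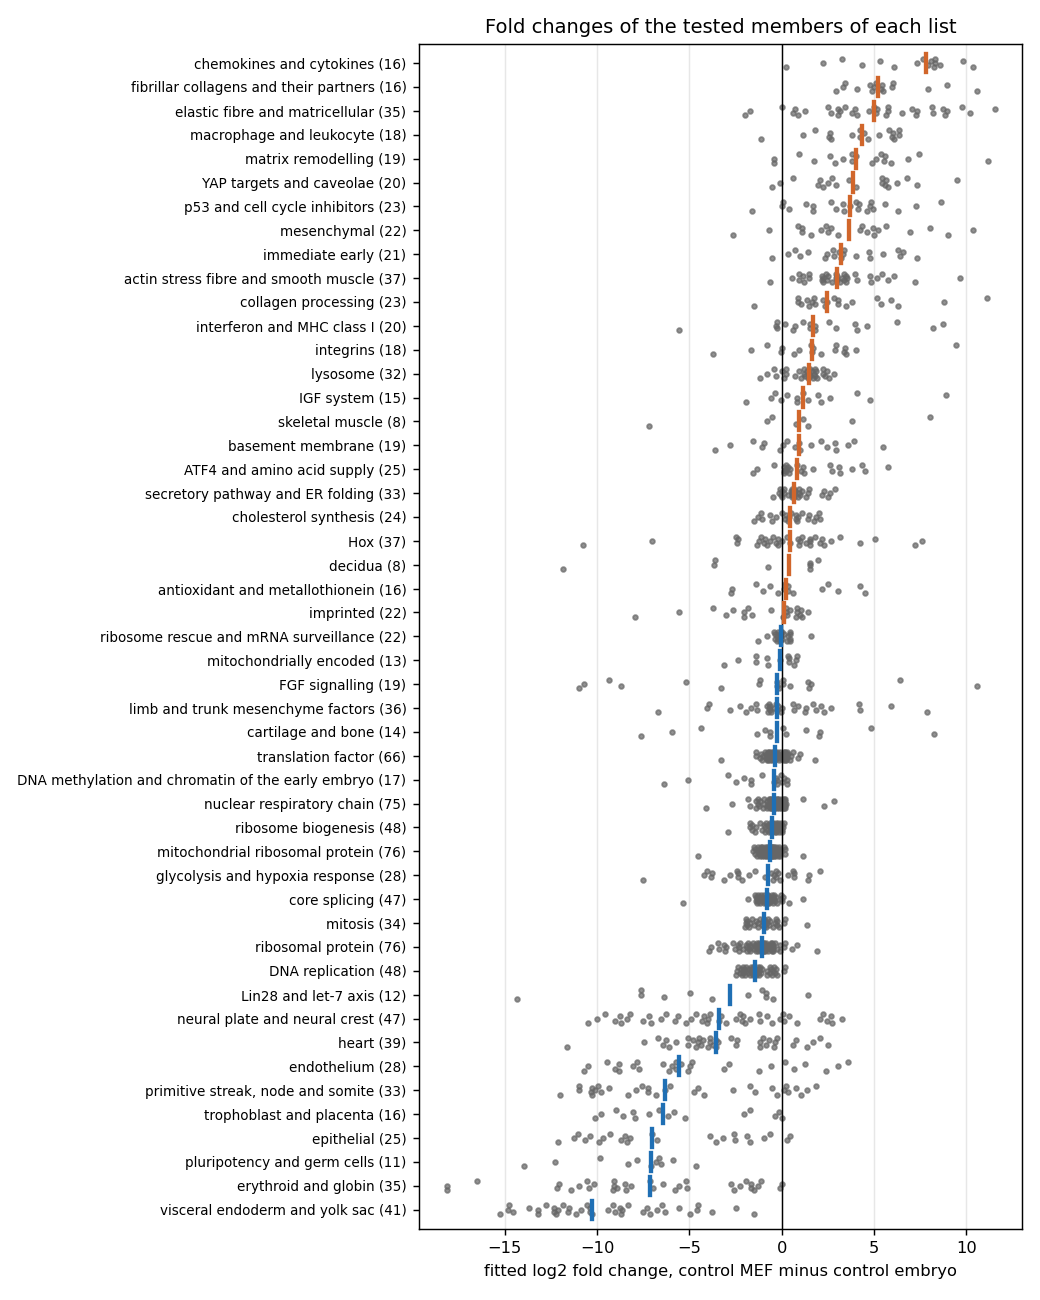
Fitted log2 fold change (control MEF minus control embryo) of every tested member of 49 gene lists, ordered by the list median; grey points are genes, coloured bars medians, and the number of tested members stands beside each name. The 16 genes of the list of fibrillar collagens and their partners lie wholly to the right of 0 (2.96 to 10.60) and the 41 visceral endoderm genes wholly to the left, while values beyond about 10 either way often belong to genes without any footprint in one group and depend on the fit's prior count.

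Actin and its partners took 7.77%, 8.31% and 7.51% of MEF footprints against 1.54% to 1.56% of embryo footprints. Of 37 genes of stress fibres and smooth muscle, 35 were higher in MEFs, 31 of them beyond 2-fold, with 1 lower (Tpm3) and 1 that did not pass (Actg1, where MEF replicate 2 stood apart and whose log2 fold change passed without that library, at 1.24, and also with DESeq2, at 2.18, with batch 4 or 5 MEFs, at 2.59 and 1.73, and with a replicate block, at 2.03). Tagln, a smooth muscle actin-bundling protein, was at 6079, 6869 and 5974 CPM against 107, 87.3 and 89.2 CPM, and smooth muscle calponin Cnn1 averaged 711 CPM against 17.0. Myh9, the heavy chain of non-muscle myosin IIA, averaged 5773 CPM against 730, and the smooth muscle heavy chain Myh11 256 CPM against 1.49. Both contractile and general components of the actin network were thus higher, with the largest folds in smooth muscle genes such as Actg2 (log2 fold change 9.64 ± 0.168).

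The actin family itself changed its makeup. These genes encode nearly the same protein, and their coding sequences were identical at 82.5% (Acta2 and Actg1) to 88.6% (Actb and Actg1) of the bases compared, with 82.6% for Actc1 and Acta2. Actc1, cardiac actin (chromosome 2, 114047282 to 114053548, mm10), was at 910, 939 and 955 CPM in embryos and at 32.7, 42.8 and 48.4 CPM in MEFs. Acta2, smooth muscle actin (chromosome 19, 34241090 to 34255590), was at 497, 499 and 527 CPM in embryos and at 17456, 19434 and 17018 CPM in MEFs. Actc1 was therefore above Acta2 in each embryo library, and far below it in each MEF library. Per kb of coding sequence, cytoplasmic Actb led in embryos (5857 CPM per kb), followed by Actc1 (826) and Acta2 (449), whereas in MEFs Actb (16011) and Acta2 (15888) did not differ beyond the spread of the libraries and Actg2 (2783) came next. Footprints of about 28 bases can tell most of these genes apart: 97.7% of the 28-base windows of the Actc1 coding sequence and 96.0% of those of Acta2 occur in no other annotated gene. For Actb the share was 50.6%, so its level beside that of Acta2 is uncertain, and for Actg1 the share was 0%. Actg1 had few footprints (17.7 CPM in embryos and 80.6 in MEFs on average) beside an mRNA level of 5525 TPM in MEFs, and Gapdh, another gene with many copies, had 1.53 and 0.733 CPM, so footprint levels of such genes are uncertain. The stretch of 30 coding bases in which Actc1 and Acta2 differ most (bases 7 to 36, with 9 differences) and a stretch in which they differ least (bases 778 to 807, with 1 difference) show what the counting had to separate; capitals mark the bases that differ, and sequences are from the Gencode M21 transcripts.
Actc1, bases 7 to 36: gaCgaCgaGgaGaCcacCgcTTtggtgtgT
Acta2, bases 7 to 36: gaAgaGgaAgaCaGcacAgcCCtggtgtgC
Actc1, bases 778 to 807: ccagagactctcttccagccCtctttcatt
Acta2, bases 778 to 807: ccagagactctcttccagccAtctttcatt

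**Figure D4:**
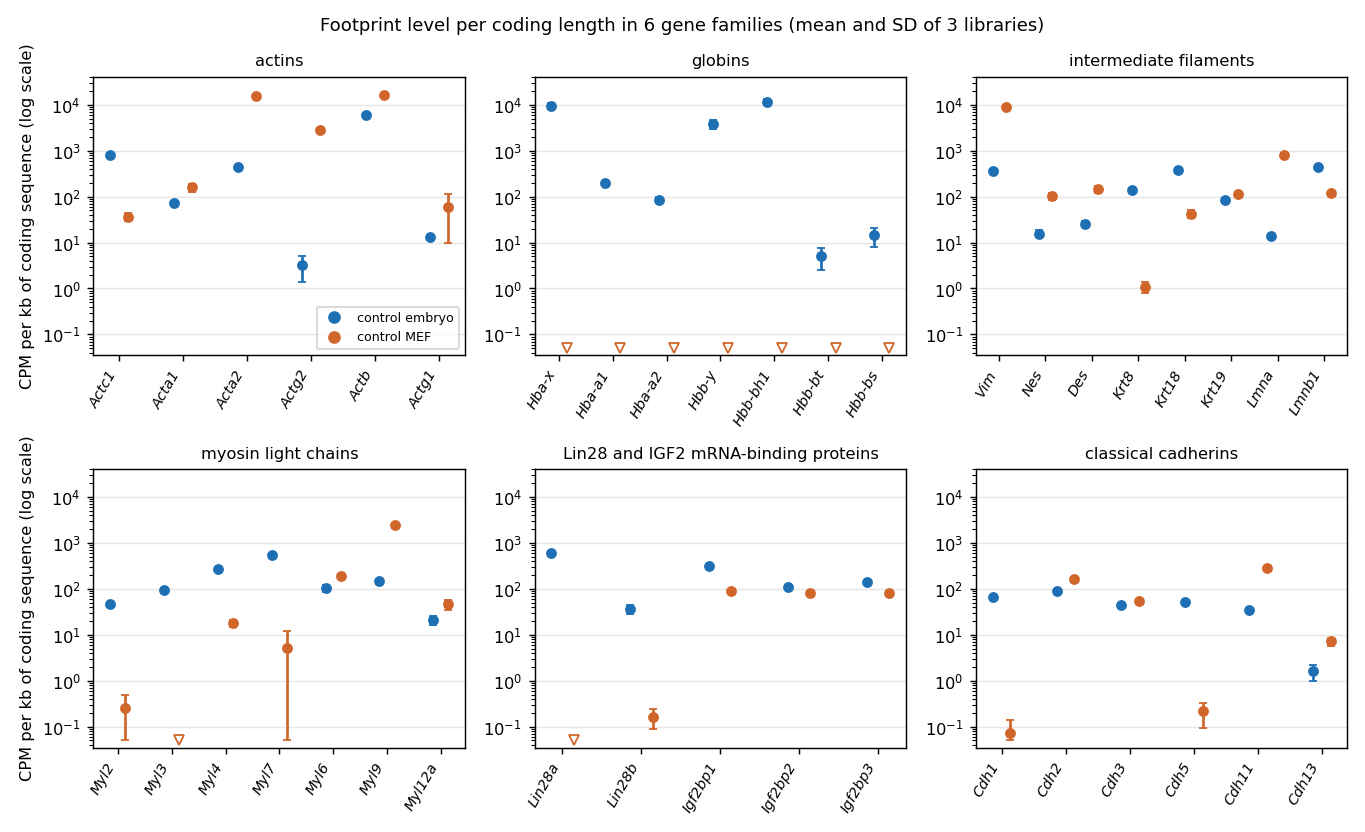
Mean footprint level per kb of coding sequence (CPM per kb, log scale) of the members of 6 gene families in control embryos (blue) and control MEFs (orange); bars are the SD of 3 libraries, drawn no lower than 0.05, and open triangles at the bottom mark genes with no footprint in any MEF library. Actc1 and Acta2 exchange rank between the groups, all 7 globins are at 0 in MEFs, and Vim reaches 8872 CPM per kb in MEFs against 357 in embryos.

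Serum response factor, a regulator that muscle and growth-stimulated cells share, binds a sequence called the CArG box. Only its strict form was searched, CCWWWWWWGG with W for A or T. Forms with a changed base were not counted, so a gene without a match may still hold such a form. Of 31 actin and smooth muscle genes with a RefSeq entry for the 250 bases before their start, 5 had a CArG box on either strand (Actg1, Cnn2, Myl6, Myl9 and Vcl), as did 5 of 30 heart genes (Actc1, Ldb3, Myl3, Myl7 and Myom1), against 1.62% of 27025 genes. The motif thus lies before genes that were lower in MEFs, such as Actc1, and before genes that were higher, such as Myl9 (1261 CPM in MEFs, 75.2 in embryos). The strict form also stood before 2 of 25 erythroid and 2 of 15 immediate early genes. It stood before 0 of 12 genes of the fibrillar collagen list and 0 of 16 genes of the list that follows. The promoters of a gene of each kind are shown from RefSeq on GRCm38.p6 with the strict form in capitals. Actc1 is at chr2:114052876-114053125 on the minus strand and Myl9 at chr2:156775214-156775463 on the plus strand. The starts behind these promoters are those of RefSeq, whereas the gene spans given above are those of GENCODE, and where these differ a stretch lies partly or wholly inside the GENCODE span, as for Actc1.
Actc1: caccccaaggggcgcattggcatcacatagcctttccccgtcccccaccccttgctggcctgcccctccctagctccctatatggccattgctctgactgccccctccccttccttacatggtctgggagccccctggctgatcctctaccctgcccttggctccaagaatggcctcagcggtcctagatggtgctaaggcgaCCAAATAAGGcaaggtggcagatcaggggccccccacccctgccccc
Myl9: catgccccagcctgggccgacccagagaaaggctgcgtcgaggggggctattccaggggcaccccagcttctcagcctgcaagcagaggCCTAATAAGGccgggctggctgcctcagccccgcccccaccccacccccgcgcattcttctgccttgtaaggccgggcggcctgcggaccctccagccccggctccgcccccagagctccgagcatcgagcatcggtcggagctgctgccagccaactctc

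The next list held genes that the mechanical regulators YAP and TAZ are known to switch on through TEAD factors, together with caveolar coat genes. It also held the genes of the regulators themselves, Yap1 and Wwtr1. Of these 20 genes, 18 were higher in MEFs (17 beyond 2-fold) and none was lower. Ccn2, a growth factor of the matrix, was at 4877, 5518 and 4667 CPM in MEFs against 25.8, 32.9 and 32.8 CPM, and Ccn1 at 2539, 2476 and 2557 CPM against 45.1, 51.5 and 52.9 CPM. Ankrd1 was at 564, 648 and 510 CPM against 39.1, 48.3 and 48.1 CPM. For each of these genes the groups lay far apart, and their replicates close together. The caveolin Cav1, the main coat protein of caveolae, was at 924, 946 and 1070 CPM against 0.331, 1.91 and 1.48 CPM, and all 5 caveolins and cavins of the list were higher in MEFs by 4.03 to 9.49 on the log2 scale. Ajuba and Nt5e did not pass (78.7 and 83.4 CPM, and 3.31 and 4.6 CPM, in MEFs and embryos). The regulator itself, Yap1, differed by only 0.61 ± 0.0854 on the log2 scale (0.06 with library totals) and its relative Wwtr1 (TAZ) by 2.74. Integrins, the receptors that fasten stress fibres to the matrix, were higher in 13 of 18 cases, led by Itgb1 (5213 CPM against 482) and the collagen receptor chain Itga11 (261 against 0.322), whereas the platelet chain Itga2b was lower (1.12 against 15.2 CPM).

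Searched on both strands, the letters GGAATG that TEAD factors are known to bind stood in the 250 bases before the start of 9 of 16 genes of this list with an entry and of 13 of 31 actin and smooth muscle genes, against 14.4% of all genes. The 9 genes include the regulators Yap1 and Wwtr1. The letters also stood before 9 of 30 heart genes and 5 of 25 erythroid genes, lists that were mostly lower in MEFs. The promoters of Ankrd1 (chr19:36119845-36120094, minus strand), with the letters at 2 places, and of Ccn1 (chr3:145649986-145650235, minus strand), where they lie on the opposite strand as CATTCC, are shown with the letters in capitals.
Ankrd1: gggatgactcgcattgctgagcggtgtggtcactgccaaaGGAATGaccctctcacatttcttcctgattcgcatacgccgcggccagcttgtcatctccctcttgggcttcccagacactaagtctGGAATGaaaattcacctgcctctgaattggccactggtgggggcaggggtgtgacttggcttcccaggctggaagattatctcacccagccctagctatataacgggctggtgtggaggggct
Ccn1: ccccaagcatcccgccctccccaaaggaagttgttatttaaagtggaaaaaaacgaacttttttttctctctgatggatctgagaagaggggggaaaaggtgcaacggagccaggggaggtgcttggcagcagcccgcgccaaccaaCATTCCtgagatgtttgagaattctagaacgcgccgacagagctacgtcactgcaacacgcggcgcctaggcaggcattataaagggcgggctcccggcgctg

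Genes of stress and growth signalling were mostly higher in MEFs. Of 23 p53 targets and cell cycle inhibitors tested, 20 were higher in MEFs, 18 beyond 2-fold. Cdkn1a, the p21 inhibitor of cyclin-dependent kinases, was at 1083, 1218 and 1101 CPM against 9.94, 17.2 and 15.1 CPM, Mdm2 averaged 603 CPM against 34.7, and Ccng1 534 against 10.9. The senescence-associated inhibitors Cdkn2a (96.8 against 4.00 CPM) and Cdkn2b (76.6 CPM against 2 footprints in all embryo libraries) were higher too. Trp53 itself, which encodes p53, did not pass (268 and 262 CPM), and Cdkn1c, the imprinted inhibitor p57, was lower (95.3 against 295 CPM). Of 21 immediate early genes, which growth factors induce within minutes, 19 were higher, 17 beyond 2-fold, with Egr1 at 192, 124 and 220 CPM against 2.65, 1.06 and 2.36 CPM and Junb at 212, 220 and 198 CPM against 15.2, 11.2 and 13.6 CPM. Ier2 was lower and Atf3 did not pass (5.90 and 4.65 CPM).

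Of 24 listed chemokine and cytokine genes, 16 were tested, and 15 of these were higher in MEFs, each beyond 2-fold. The other 8 were not tested, so the direction of the tested ones follows in part from the filter on low counts. The median log2 fold change was 7.81 as fitted and 3.78 when the 6 genes without an embryo footprint were set at their bound. Ptgs2, which makes the prostaglandin precursor, was at 1112, 1351 and 1096 CPM against 4.97, 2.33 and 6.50 CPM, and Csf1, the macrophage growth factor, at 735, 820 and 722 CPM against 4.31, 4.03 and 5.91 CPM. The monocyte attractant Ccl2 averaged 144 CPM in MEFs with 1 footprint in all embryo libraries, and Il6 6.96 CPM with none. Of 30 listed interferon-induced and MHC class I genes, 10 were not tested, so the direction of the others follows in part from the filter. Of the other 20, 14 were higher (12 beyond 2-fold), 1 (Ifitm1) lower and 5 did not pass. With library totals 13 were higher (8 beyond 2-fold) and 4 lower. B2m, the light chain of MHC class I, was at 821 CPM in MEFs against 52.2 in embryos. The class I genes H2-K1 and H2-D1 differed far less. Per kb of coding sequence H2-K1 was at 9.66 CPM in embryos and 8.01 in MEFs, and H2-D1 at 11.5 and 13.4. Macrophage and leukocyte genes moved in the same direction: 17 of 18 tested were higher in MEFs, 15 beyond 2-fold, and their summed share was 0.0196% to 0.0268% of MEF footprints and 0.00365% to 0.00450% of embryo footprints. Lyz2, lysozyme, was at 74.8, 62.2 and 76.8 CPM in MEFs, Csf1r, the receptor of Csf1, at 25.7, 21.8 and 32.0 CPM, C1qa at 14.4, 13.5 and 19.8 CPM and the pan-leukocyte Ptprc at 6.33, 4.46 and 6.73 CPM, so none of these defining markers was at 0. Mrc1 was the member that was lower. The part of such cells in the chemokine and interferon values was not tested.

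On the embryo side, genes of primitive red cells were among those with the most footprints. Erythroid genes took 1.43%, 1.52% and 1.82% of embryo footprints and 0.0457% to 0.0520% of MEF footprints, and 33 of 35 tested were lower in MEFs, 32 beyond 2-fold. Hba-x, the alpha-like zeta globin of the yolk sac, was at 4541, 5348 and 6053 CPM, Hbb-bh1 at 4828, 4748 and 5902 CPM and Hbb-y at 1492, 1414 and 2155 CPM. None of the 3 had a footprint in any MEF library, which sets the differences at no less than 17619-fold, 17107-fold and 5593-fold against the floor of 3 counts. Per kb of coding sequence, the embryonic beta-like globins Hbb-bh1 (11699.5 CPM per kb) and Hbb-y (3825) stood far above the adult Hbb-bs (14.5) and Hbb-bt (5.12), and Hba-x (9438) above the adult Hba-a1 (200.0) and Hba-a2 (86.3). The adult copies are near-identical, with 6.02% to 7.02% of their 28-base windows found in no other gene, so their levels are uncertain. The master regulators Gata1 (31.5, 28.2 and 21 CPM) and Klf1 (22.5, 22.5 and 27.2 CPM), the anion exchanger Slc4a1 (77.1 CPM on average) and the heme enzyme Alas2 (49.7 CPM) were also found in embryos, with 2 footprints of Klf1 and none of the others in MEFs. Tfrc, the transferrin receptor that all dividing cells use to take up iron, and Fech, the last enzyme of heme synthesis, did not pass (348 and 324 CPM, and 47.9 and 48.9 CPM, in embryos and MEFs).

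GATA factors are known to drive this program, and the letters GATAA on either strand stood in the 250 bases before the start of 17 of 25 erythroid genes with an entry, against 25.5% of all genes. By comparison 15 of 30 heart genes and 4 of 31 actin and smooth muscle genes held them. The promoters of the embryonic globins Hba-x and Hbb-y (that of Hbb-bh1 was not analysed here) are shown with the letters (or their reverse, TTATC) in capitals, Hba-x at chr11:32276350-32276599 on the plus strand and Hbb-y at chr7:103853208-103853457 on the minus strand, again from RefSeq on GRCm38.p6.
Hba-x: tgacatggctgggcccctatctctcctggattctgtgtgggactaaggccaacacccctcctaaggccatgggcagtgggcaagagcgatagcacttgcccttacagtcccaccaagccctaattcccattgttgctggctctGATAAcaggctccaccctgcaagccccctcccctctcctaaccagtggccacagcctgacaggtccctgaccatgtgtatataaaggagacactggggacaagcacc
Hbb-y: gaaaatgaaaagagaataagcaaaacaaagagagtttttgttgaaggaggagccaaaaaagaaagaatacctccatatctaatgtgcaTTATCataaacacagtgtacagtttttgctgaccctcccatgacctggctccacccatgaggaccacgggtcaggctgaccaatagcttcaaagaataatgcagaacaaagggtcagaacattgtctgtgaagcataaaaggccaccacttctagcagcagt

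Visceral endoderm and yolk sac genes had the lowest list median. All 41 tested were lower in MEFs, each beyond 2-fold, with a median log2 fold change of -10.27 (-8.28 with the 14 genes without a MEF footprint at their bound), and they took 2.57%, 2.56% and 2.85% of embryo footprints. Apob, the backbone of lipoproteins, was at 5081, 6270 and 6538 CPM against 1.35, 1.37 and 1.17 CPM, and the endocytic receptor Cubn at 2304, 3188 and 3361 CPM against 5.81, 6.56 and 4.59 CPM. The fetal plasma protein Afp was at 1768, 1722 and 1808 CPM, and the retinol carriers Ttr (1158, 993 and 1191 CPM) and Rbp4 (955, 810 and 1031 CPM) were of like level. Against these, MEFs gave 0 to 3 footprints of Afp and Ttr in a library. Albumin, which the later liver makes in bulk, varied among the pools (Alb at 21.2, 56.8 and 6.2 CPM), and its call was lost without MEF replicate 1 (-10.50) and with thinned counts (-9.24), although the fitted log2 fold change stayed far below 0. The lipid carrier Apoe (2522 CPM in embryos, 110 in MEFs) and the receptors Lrp2 (720 and 128) and Dab2 (547 and 191) were lower in MEFs but far from absent there. The regulators Hnf4a (42.4 CPM) and Sox17 (25.0 CPM) had no MEF footprint.

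Genes of tissues outside the embryo proper were also found in the pools. Of 34 trophoblast and placenta genes, 16 were tested and 13 were lower in MEFs, each beyond 2-fold, among them the imprinted Phlda2 (387, 269 and 366 CPM against 1.56, 1.64 and 0.854 CPM) and Plac1 (33.5 against 0.0702 CPM on average), while the placental lactogen Prl3d1 averaged 2.1 CPM in the pools and the proliferin Prl2c2 0.110 CPM. The other 18 trophoblast and placenta genes were not tested, so the direction of the tested ones follows in part from the filter. Of 13 listed decidual genes 8 were tested, 3 lower and 4 higher, or 4 and 4 with library totals. Their median of 0.38 turned to -0.16 with library totals, to -3.61 at 5 CPM or more in 3 libraries and to -2.86 with thinned counts. The decidual prolactin Prl8a2 was at 37.1, 102 and 59.9 CPM in the embryo pools and 0 in MEFs. Prl8a2 is known as a product of the uterine decidua and not of the embryo, and pool 2 was the highest.

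Heart genes were lower in MEFs in 30 of 39 cases (26 beyond 2-fold), with a median log2 fold change of -3.57. The atrial light chain Myl7 was at 288, 276 and 285 CPM in embryos and at 0.311, 1.18 and 6.73 CPM in MEFs, and the heavy chain Myh6 at 121, 205 and 120 CPM against 0.208, 1.00 and 12.7 CPM, a call lost with a replicate block (-5.23, adjusted p = 0.0575 with edgeR). MEF replicate 3 was the highest in both and replicate 1 the lowest, so the residual level differed widely between cultures. Myl3 (58.0, 55.1 and 60.5 CPM) had no MEF footprint, while Tnnt2 was still at 7.06 to 8.54 CPM in MEFs and Myl4 9.34 to 13 CPM. The factors Nkx2-5 (13.2 against 0.240 CPM), Gata4 (58.1 against 2.05) and Hand1 (93.4 against 1.06) were lower as well. The 6 heart-list genes that were higher in MEFs were Des, Nexn, Myom1, Atp2a2, Ldb3 and Nppb, several of which smooth muscle or other cells also use, with desmin Des at 206 against 36.5 CPM and the calcium pump Atp2a2 at 810 against 479 CPM. Of 18 listed skeletal muscle genes, 8 were tested, of which 4 were higher in MEFs, 1 was lower and 3 did not pass. With library totals 4 were higher and 3 lower. The part of skeletal muscle cells in the heart-list values was not tested. The call of Ldb3 was lost with library totals (0.04).

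Endothelial genes were lower in 22 of 28 cases and higher in 5. The junction protein Cdh5 was at 125, 120 and 116 CPM in embryos and at 0.830, 0.364 and 0.320 CPM in MEFs, and Pecam1 at 29.8, 23.3 and 28.6 CPM against 0.415, 0.637 and 0.427 CPM, both near the floor of 3 counts in MEFs. Emcn, a sialomucin of capillaries and veins, went the other way, with a mean of 25.6 CPM in MEFs and 10.7 in embryos, and so did the connexin Gja5 (11.2 and 7.27 CPM), whose call was lost without embryo replicate 1 (0.57) or 2 (0.46), without MEF replicate 2 (0.53) and with library totals (0.10), upper quartile scaling (0.46) or thinned counts (0.39). The VEGF receptors were divided: Kdr was lower (64.9 against 154 CPM), Flt4 did not pass, and Flt1 was higher in MEFs, at 355, 283 and 386 CPM against 40.8, 44.9 and 39.6 CPM. The TGF-beta co-receptor Eng (110 against 20.2 CPM) and Runx1 (48.2 against 3.99 CPM) were higher too.

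Patterning genes of the germ layers were mostly lower in MEFs. Of 33 primitive streak, node and somite genes, 24 were lower, all of them beyond 2-fold, and 4 were higher. The mesoderm factor T (brachyury) was at 42.1, 33.9 and 35.7 CPM, the presomitic factor Tbx6 at 23.9, 26.9 and 15.6 CPM, Cdx4 at 72.9, 85.6 and 69.7 CPM and the tailbud growth factor Fgf8 at 31.5, 38.4 and 42.5 CPM in embryos, with no footprint of any of them in MEFs. The forkhead genes Foxc1 and Foxc2, which later mesenchyme also uses, were higher in MEFs (60.8 against 35.6 and 69.8 against 34.1 CPM), although the call of Foxc1 was lost with library totals (0.23). Of 47 neural plate and neural crest genes, 34 were lower and 6 higher, yet the list took much the same share of the 2 kinds of library (0.179% to 0.196% in embryos, 0.182% to 0.190% in MEFs). Sox2 fell from 77.2, 70.8 and 70.3 CPM to 0.623, 0.729 and 0.961 CPM, and Sox3, Sox1, Otx2 and Pax6 had mean levels of 75.6, 22.3, 18.9 and 14 CPM in embryos and no more than 0.221 CPM in MEFs. The adhesion molecule Ncam1 (900 against 92.4 CPM) and the intermediate filament Nes (580 against 88.1 CPM), both made outside the nervous system as well, were higher in MEFs. Of 19 FGF signalling genes tested, 6 were higher in MEFs, 8 lower and 5 did not pass, or 5 higher and 11 lower with library totals. Among the ligands Fgf8, Fgf15, Fgf17 and Fgf3 had no MEF footprint, Fgf10 (2.19 CPM in embryos, 1.95 in MEFs) and Fgf18 (2.08 and 1.85) did not pass, Fgf7 (28.1 CPM in MEFs) had no embryo footprint and Fgf2 averaged 31.5 against 0.310 CPM.

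Of 21 pluripotency and germ cell genes, 11 had enough counts to be tested, which they reached through the embryo libraries, so that their lower level in MEFs was fixed by the filter and is given as a description. Sall4 was at 314, 291 and 262 CPM and Pou5f1 (Oct4) at 30.8, 12.1 and 9.45 CPM in embryos, both at 0 in MEFs, and Nanog was too low to test (1.19 and 0.334 CPM). Of 12 genes around the RNA-binding protein Lin28a, which blocks the maturation of let-7 microRNAs, 11 were lower in MEFs. Lin28a itself was at 392, 365 and 372 CPM and without a MEF footprint (at least 1248-fold), its paralog Lin28b averaged 29.6 against 0.135 CPM, the ubiquitin ligase Trim71 81.5 against 0.393 CPM and Mycn 192 against 6.11 CPM. Igf2bp1, Igf2bp2 and Igf2bp3 differed less, by -1.82, -0.47 and -0.83 on the log2 scale. Hmga2, a known let-7 target, was the exception, at 160, 164 and 153 CPM in MEFs against 57.3, 65.9 and 56.1 CPM in embryos. Of the DNA methyltransferases, Dnmt3b was at 136, 104 and 91.2 CPM against 0.830, 1.55 and 1.49 CPM, Dnmt3a was lower by 1.08 on the log2 scale and Dnmt1 by 0.25. The call of Dnmt1 was lost without embryo replicate 2 (-0.11) or 3 (-0.25) and without MEF replicate 1 (-0.26) or 2 (-0.17).

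Hox genes are known to number positions from head to tail in the order of their paralog groups. Of 37 tested, 17 were higher in MEFs, 13 lower and 7 did not pass. In groups 1 to 4, 7 of 12 were lower and 2 higher. In groups 5 to 8, 6 of 11 were higher and 3 lower, and in groups 9 to 13, 9 of 14 tested were higher and 3 lower. Summed CPM went from 164 ± 12.8 (SD, n = 3) in embryos to 84.2 ± 13 in MEFs for groups 1 to 4, from 114 ± 14 to 173 ± 25.5 for groups 5 to 8 and from 88.2 ± 8.12 to 121 ± 17.4 for groups 9 to 13, and the 3 libraries of each group overlapped in none of these sums. With library totals only the difference in groups 1 to 4 was left without overlap (181 to 213 CPM in embryos, 60.6 to 79.5 in MEFs). There the sums of groups 5 to 8 were 119 to 153 in embryos and 122 to 158 in MEFs, and those of groups 9 to 13 were 98.8 to 118 and 85.4 to 110.1, so that the higher sums in MEFs depend on the scaling. Hoxb1 was at 29.5, 35.8 and 29.8 CPM in embryos and at 0 in MEFs, and Hoxd1 averaged 15.2 against 0.0911 CPM. At the other end Hoxc10 was at 19.3, 20.6 and 17.4 CPM in MEFs against 2.98, 0.848 and 2.95 CPM, Hoxd13 at 8.61, 10.7 and 7.26 CPM against 0.663, 0.212 and 0.591 CPM, and Hoxc13 averaged 3.58 CPM in MEFs with no embryo footprint. In group 9, Hoxb9, Hoxa9 and Hoxd9 were lower in MEFs and Hoxc9 did not pass the test. Differences between the groups of Hox genes were not tested. Hox genes are low in both tissues, and the median over the list (0.43) changed sign with library totals (-0.11), at 5 CPM or more in 3 libraries (-0.21), with thinned counts (-0.32) and without MEF replicate 2 (-0.04).

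**Figure D5:**
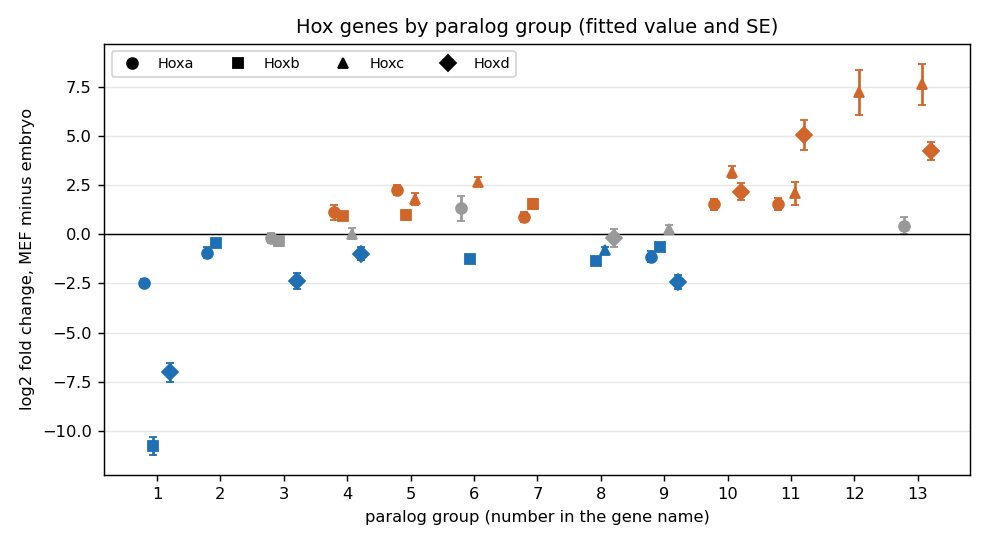
Fitted log2 fold change (control MEF minus control embryo, with its SE) of the 37 tested Hox genes against paralog group; marker shapes give the cluster, orange marks genes higher in MEFs, blue genes lower in MEFs and grey genes that did not pass the test. Group 1 lies below 0 in all 3 clusters that have it, and groups 10 to 12 lie above 0.

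Of 36 limb and trunk mesenchyme factors, 14 were higher and 15 lower, or 11 and 21 with library totals. Prrx1, which marks limb and flank mesenchyme, was at 244, 203 and 270 CPM in MEFs against 9.61, 15.9 and 11.5 CPM, and Tbx15 averaged 86.8 against 0.406 CPM. Msx1 (5.36 against 90.9 CPM), the lateral plate factor Foxf1 (9.90 against 68.6 CPM) and the hedgehog target Gli1 (0.136 against 15.9 CPM) were lower in MEFs.

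Epithelial and mesenchymal genes differed in opposite directions. Of 25 epithelial genes, 23 were lower in MEFs (21 beyond 2-fold) and 2, Krt19 and Cdh3, were higher, both by less than 2-fold, and both were below 0 with library totals (-0.09 and -0.28). The call of Cdh3 was also lost without embryo replicate 3 (0.23), MEF replicate 1 (0.23) or MEF replicate 3 (0.23), and with upper quartile scaling (0.07) or thinned counts (0.22). E-cadherin, Cdh1, was at 189, 171 and 181 CPM in embryos and at 0.311, 0.273 and 0 CPM in MEFs, and Epcam at 143, 120 and 148 CPM against 0.104, 0.0911 and 0 CPM. Of 22 mesenchymal genes, 20 were higher in MEFs. Vimentin, Vim, was at 12275, 13032 and 11904 CPM against 534, 472 and 492 CPM, Cdh11 averaged 682 against 82.8 CPM and Cdh2, N-cadherin, 449 against 244 CPM. Among the filaments that line the nucleus, lamin A/C (Lmna), known to be high in stiff and differentiated tissue, was at 1665, 1848 and 1490 CPM in MEFs against 30.2, 25.6 and 28.3 CPM, and Lmnb1 was lower (214 against 778 CPM), so that per kb of coding sequence Lmnb1 stood above Lmna in embryos (441 and 13.8 CPM per kb) and below it in MEFs (121 and 820).

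Genes of growth and division were lower in MEFs across broad lists. Of 48 DNA replication genes, 46 were lower and none higher, with 33 beyond 2-fold and a median log2 fold change of -1.44. The helicase subunit Mcm5 was at 653, 579 and 624 CPM against 140, 134 and 151 CPM and the sliding clamp Pcna at 256, 217 and 267 CPM against 67.2, 61.8 and 77.2 CPM. Rrm1, a ribonucleotide reductase subunit, and Rpa1 were the 2 that did not pass, and Rrm1 (537 and 607 CPM) passed as higher in MEFs without embryo replicate 3 (0.22), without MEF replicate 2 (0.26) or with no filter on low counts (0.23), and as lower with library totals (-0.37). Of 34 mitosis genes 28 were lower, with Cdk1 at 516, 452 and 507 CPM against 256, 224 and 269 CPM, and only Anln, a scaffold of the cleavage furrow and of actin, was higher (351 against 137 CPM). Histone genes, which were left out of the main test, took 4.50%, 4.02% and 4.39% of embryo footprints and 0.538%, 0.441% and 0.566% of MEF footprints, and when they were kept 69 of 71 were lower and 1, H2aj, was higher. Many histone genes share coding sequence, so their single levels are uncertain. The D cyclins, which link growth factors to the cell cycle, went the other way: Ccnd1 and Ccnd2 stood at 557 and 1306 CPM per kb in MEFs against 209 and 290 in embryos.

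The translation apparatus itself took a smaller share of MEF footprints. Ribosomal protein genes fell from 2.16%, 1.93% and 2.02% of embryo footprints to 0.747%, 0.709% and 0.740% of MEF footprints, and 63 of 76 tested were lower, 30 beyond 2-fold, with 3 higher. Rpl8 averaged 1380.3 CPM in MEFs against 2764 in embryos. Rpl36 was the one member beyond 2-fold higher (53.6 against 14.8 CPM), and Rpl39l, which is a paralog of Rpl39 and no member of the list, gave 1 footprint in all embryo libraries and 5.48 CPM in MEFs. Many ribosomal protein genes have processed pseudogenes, and in Rpl39 and Rps27 none of the 28-base windows is found in no other gene. Ribosome biogenesis genes were lower in 37 of 48 cases and higher in none, with Npm1 at 225 against 697 CPM and Ncl at 1320 against 1997 CPM, and 8 were beyond 2-fold. Mitochondrial ribosomal proteins (62 of 76 lower, 10 beyond 2-fold) and core splicing factors (41 of 47 lower, 11 beyond 2-fold) were mostly lower too. With library totals the genes beyond 2-fold lower rose to 54 for ribosomal proteins, 20 for ribosome biogenesis (48 of 48 lower), 37 for mitochondrial ribosomal proteins and 31 for splicing. Of 66 translation factors, 36 were lower and 11 higher, or 57 lower and 3 higher with library totals, and the elongation factor Eef2 did not pass (3208 and 2973 CPM in MEFs and embryos).

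Glycolytic genes were mostly lower in MEFs. Of 28 glycolytic and hypoxia-responsive genes tested, 19 were lower in MEFs and 6 higher. The neuronal-type glucose transporter Slc2a3 (GLUT3) was at 3387, 3431 and 3539 CPM in embryos and at 17.5, 21 and 18 CPM in MEFs, and Slc2a1 (GLUT1) at 2014, 2356 and 1967 CPM against 242, 240 and 231 CPM. The lactate carriers Slc16a1 (1389 against 74.2 CPM) and Slc16a3 (496 against 35.8 CPM) were lower too. Among the enzymes, values were lower for Ldha (499 against 1364 CPM) and Pkm (1016 against 1375 CPM), and isoforms differed in direction: the hexokinase Hk1 was higher in MEFs (155 against 37.4 CPM) and Hk2 lower (118 against 179 CPM), and of the phosphofructokinases Pfkp was higher (96.9 against 35.6 CPM) and Pfkl lower (121 against 625 CPM). Of 75 nuclear genes of the respiratory chain, 47 were lower in MEFs, 6 higher and 22 did not pass, with a median log2 fold change of -0.41, and with library totals 70 were lower and 2 higher. Of 25 genes of ATF4 and amino acid supply, 15 were higher, 3 lower and 7 did not pass, with a median of 0.82, and with library totals 13 were higher and 8 lower. Of 24 cholesterol synthesis genes 14 were higher and 6 lower, and of 16 antioxidant genes 8 were higher and 6 lower. The medians of the cholesterol and antioxidant lists were above 0 (0.46 and 0.25) and fell below 0 with library totals (-0.09 and -0.30).

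Lysosomal genes were higher in 25 of 32 cases, 20 beyond 2-fold (11 with library totals, where 7 were lower), with the protease Ctsd at 699 against 97.3 CPM and the membrane protein Lamp1 at 1448 against 507 CPM, and 4 lower, among them Ctsl (921 against 1239 CPM). In the IGF system, which governs fetal growth, 11 of 15 genes were higher. Igf2 was at 2102, 2295 and 1852 CPM against 786, 756 and 802 CPM, and the binding protein Igfbp7 averaged 814 against 1.86 CPM, while Igfbp4 was lower (70.5 against 267 CPM). Imprinted genes moved either way, 9 of 22 higher and 10 lower, with a median of 0.13 that turned to -0.42 with library totals: the paternally expressed Mest was at 1288, 1215 and 1238 CPM in embryos and at 94.9, 94.5 and 92.7 CPM in MEFs, Peg10 averaged 995 against 239 CPM, and Grb10 was higher in MEFs (1914 against 879 CPM).

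Hbs1l, which with its partner Pelo releases ribosomes stalled at the end of an mRNA, did not pass (adjusted p = 0.555 with edgeR). It was at 50.4, 43.9 and 42.2 CPM in embryos and at 42.2, 47.2 and 39.0 CPM in MEFs. The count is per gene, and by the study the gene also encodes a shorter isoform II, likely an ortholog of yeast SKI7. Footprints of these proteins were not told apart. Pelo was at 59.6, 45.4 and 49.9 CPM against 40.8, 43.3 and 33.6 CPM, lower by 0.38 ± 0.133 on the log2 scale (adjusted p = 0.0125 with edgeR). Upf2, a nonsense-mediated decay factor, was at 48, 52.8 and 34.8 CPM against 63.2, 56.2 and 69.9 CPM, higher by 0.47 ± 0.136 (adjusted p = 0.00361 with edgeR), and its call was lost with upper quartile scaling (0.28) and library totals (-0.07). The call of Pelo was lost without embryo replicate 1 (-0.26, adjusted p = 0.104 with edgeR) and without MEF replicate 3 (-0.26, adjusted p = 0.093 with edgeR), and with library totals Hbs1l passed as lower in MEFs (-0.63). Of 22 genes of ribosome rescue and mRNA surveillance, 5 were higher, 6 lower and 11 did not pass (median -0.06), whereas with library totals 1 was higher and 15 lower (median -0.60). Only Ttc37, a Ski complex subunit (103 against 33.9 CPM), and the rescue GTPase Gtpbp1 (35.8 against 86.4 CPM) were beyond 2-fold.

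Control MEF libraries of the same replicate number were also sequenced in batches 4 and 5. Libraries with the same number in different batches differed by a chi-square of 1.10 to 1.19 per gene over 9 pairs, close to the 1 that counting noise alone gives, whereas those with different numbers differed by 4.06 to 12.6 over 27 pairs. They were therefore not counted as further replicates. With batch 4 or batch 5 control MEFs in place of batch 3, 9785 and 9914 genes passed, and 9501 and 9518 of the 9792 genes kept their call and direction. No embryo library shared a batch with a MEF library.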

How the data were processed

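Ribosome footprints of 3 control MEF and 3 control embryo libraries were compared. Per the labels and methods, the authors trimmed reads, removed rRNA, snoRNA and tRNA with Bowtie2 2.2.3, aligned to mm10 with HISAT2 2.1.0 and deposited unnormalized counts per gene over coding sequence from featureCounts. For MEF RNA the authors deposited TPM values from kallisto 0.42.4. Values were used as deposited.

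Histone symbols (100) were left out. Genes passing edgeR's expression filter (12616 of 22438) were fitted with edgeR 4.0.16 in R 4.3.3 (TMM scaling, quasi-likelihood test, group as the only factor, Benjamini-Hochberg adjustment), and the test beyond 2-fold used the same fit. The fit was tested on simulated data. Folds against groups at 0 used 3 counts in each library as floor, and with 1 to 3 counts an exact 95% interval, both covering counting error only. The leading genes were up to 15 per direction, by log2 fold change, among non-overlapping genes past the 2-fold test with a mean of at least 50 CPM. Other genes were named from the lists for their level or role. A few genes that the rule or the lists would name are not reported here. The members and lists were chosen with earlier results of these data known. Where replicates are not separate animals or pools, p-values measure only the spread between these samples. Same-numbered embryo and MEF libraries did not deviate together (r of deviations 0.029, -0.031 and 0.034). Alternatives were DESeq2 1.42.0, other scalings and filters, thinned counts, other MEF batches, a replicate block and leaving out each library.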

Additional observations from a re-analysis of the deposited data

How the results depend on the processing

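Calls were recomputed with DESeq2, RLE, upper quartile and library total scaling, no filter or a filter of 5 CPM, histones kept, mitochondrial genes left out, thinned counts and the MEF controls of batches 4 and 5. The number of genes that passed lay between 8425 (thinned) and 10839 (no filter), and no gene called beyond 2-fold changed direction in any of these. With library totals, genes beyond 2-fold lower in MEFs rose from 2273 to 3675. The balance of calls there was 32% higher and 68% lower. With TMM scaling, which takes most genes as unchanged, the balance was 49.8% higher and 50.2% lower. Leaving out each library in turn gave 8993 to 9872 genes, of which 4516 to 4955 were higher and 4477 to 4917 lower, and 4412 to 4897 beyond 2-fold, of which 2335 to 2622 were higher and 2077 to 2306 lower.

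The replicate numbers do not pair the samples, and a replicate block gave 9626 genes (4801 higher, 4825 lower), 9591 of them shared with the main calls, and 4724 beyond 2-fold (2497 higher, 2227 lower). Among named genes, the block lost the call of Myh6 (-5.23, adjusted p = 0.0575 with edgeR) and gained those of Actg1 and Col11a2. Of 12 named genes whose direction turned, 11 did so with library totals: Thbs3 (-0.54), Hspa5 (-0.43), Trp53 (-0.51), Fech (-0.52), Flt4 (-0.40), Krt19 (-0.091), Cdh3 (-0.28), Rrm1 (-0.37), Rpa1 (-0.42), Eef2 (-0.44) and Upf2 (-0.073). All of these but Krt19 and Upf2 passed there as lower in MEFs, as did Lama5, Ajuba, Nt5e, Tfrc, Rpl39, Hbs1l and Col11a2, while Ldb3, Foxc1, Gja5 and Yap1 lost their calls. Lama5 (-0.29), Ajuba (-0.28) and Tfrc (-0.29) also passed as lower with upper quartile scaling, and Rpl39 (-0.89) with batch 4 MEFs. Ddx3y turned, and passed as lower in MEFs, without MEF replicate 3, the MEF library with Y-linked footprints at a high level, and its log2 fold change lay between -4.21 and 2.86 as single libraries were left out. Depth limits statements on genes below about 3 counts in a library.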
